A study of Mus musculus with 4 samples.

Results

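Gene desert peaks are RNA polymerase II (Pol II) peaks that lie far from any gene. A peak of the deposited lists was counted as one when it lay on chromosomes 1 to 19 and its summit was more than 100 kb from every gene body of any type in the GENCODE M21 annotation of mm10. Of 389754 peaks in 4 libraries, 13115 met this rule, namely 2426 and 1281 of the old WT Cre libraries (rep 1 and rep 2) and 1640 and 7768 of the young EC-K4KO libraries (rep 1 and rep 2). Values of all 4 libraries are given in this order throughout. A peak here is an interval in which the fragments of a library piled up above its own local background, and the summit is the base where they piled up highest.

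The chromatin came from brain endothelial cells (ECs) and was precipitated with an antibody against Pol II. Old WT Cre mice (20 to 23 mo) carried CDH5-CreERT2 with intact *Klf4*, and young EC-K4KO mice (4 to 6 mo) carried the same Cre with floxed *Klf4*. The background was C57BL/6J, the Cre is driven by the VE-cadherin promoter, and tamoxifen was given at 8 wk. The label EC-K4KO stands for loss of *Klf4* in ECs, and the peak lists hold no check of that loss. Genotype and age changed together between the groups, so that their parts cannot be told apart. The study's methods call the 2 libraries of a group biological replicates, without saying which animals entered each. The p-values take whole libraries as units, and the small number of libraries limits how low a p can be. In chromatin pooled from many cells, fewer cells with Pol II at a site and less Pol II per cell cannot be told apart either.

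The libraries held 65734178, 27455452, 35227929 and 22705175 fragments and 78851, 39674, 35638 and 235591 peaks. Young EC-K4KO rep 2 thus had the fewest fragments and the longest list, and differences between the groups are also given without it. The smallest pileup of a called peak, in fragments over the summit, was 13, 8, 9 and 7. A peak lay at most 1500 bp from the start site of 3, 4, 0 and 6 of 10 endothelial marker genes. *Cdh5*, *Kdr* and *Flt1*, the genes of VE-cadherin and of receptors for vascular endothelial growth factor, had one in 3 libraries. *Pecam1*, *Tek*, *Tie1* and *Esam* had one in no library, and young EC-K4KO rep 1 had none at any of the 10. Of 25 markers of neurons, glia and mural cells, 7, 4, 4 and 11 had one. The mural genes *Abcc9* and *Acta2* had one in 3 libraries, young EC-K4KO rep 1 among them. The share of all gene start sites with such a peak was not computed, so no enrichment for a cell type is read from these counts.

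Gene deserts are long stretches of chromosome without annotated genes. They are known to be poor in GC and rich in copies of transposable elements, and some hold enhancers that act on a gene at their border over a long distance. Pol II is recruited to promoters of genes, to active enhancers, where it makes short unstable RNAs, and to promoters carried inside transposable elements, many of which cells keep silent. KLF4, the factor deleted in EC-K4KO mice, is a zinc finger transcription factor of ECs that binds GC-rich CACCC elements.

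The deserts were 1128 stretches of sequenced bases that added up to 146 Mb, 6.08% of chromosomes 1 to 19. Their bases were 38.3% GC, against 41.9% over these chromosomes, and 40.6% of them were soft-masked as repeats in the reference, against 33.5%. At 18.8% of positions on a grid in the deserts, the 31 bases there had a further copy elsewhere in the genome.

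Desert peaks carried recurring sequences. In the 200 bp around the summits, 31-base sequences found at many desert peaks were collected into groups, each numbered by the order in which it was found, with the peaks that share further bases of the same element. The 11044 regions formed by merging overlapping desert peaks of the 4 libraries included 1867 (16.9%) with one of the first 8 groups. Without young EC-K4KO rep 2 there were 4497 regions from 5347 peaks, of which 1251 (27.8%) carried one. A region was counted in 1 group only, the first that it matched. Groups 1 and 7 were the simple repeats of CA and CT, with 411 and 70 regions. Windows of 150 bp from 4 groups are shown. Groups 2 and 3 were the most frequent at regions with a peak in all 4 libraries. Group 8 differed from both in where its copies carried peaks, and group 4 is an abundant element that mostly carried none. The capitals mark the recurring 31 bases. Each window is from GRCm38 (mm10), read from RefSeq and written 5′ to 3′ on the strand named.
Group 2 (chr3:44247684-44247833, minus strand): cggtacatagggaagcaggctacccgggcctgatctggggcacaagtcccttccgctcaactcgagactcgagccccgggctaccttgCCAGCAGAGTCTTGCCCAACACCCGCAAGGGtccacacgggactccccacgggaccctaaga
Group 3 (chr12:42629338-42629487, plus strand): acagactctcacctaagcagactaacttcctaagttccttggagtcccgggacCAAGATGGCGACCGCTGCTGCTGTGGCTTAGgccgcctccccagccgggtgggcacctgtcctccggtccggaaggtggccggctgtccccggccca
Group 8 (chr3:61712936-61713085, plus strand): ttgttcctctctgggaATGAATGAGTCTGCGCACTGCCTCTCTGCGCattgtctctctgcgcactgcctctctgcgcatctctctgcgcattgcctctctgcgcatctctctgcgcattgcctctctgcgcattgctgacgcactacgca
Group 4 (chr13:52381811-52381960, minus strand): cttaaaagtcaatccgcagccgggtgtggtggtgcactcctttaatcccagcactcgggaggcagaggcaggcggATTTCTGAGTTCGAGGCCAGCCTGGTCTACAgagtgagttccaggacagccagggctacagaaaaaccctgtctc

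Group 2 was at 410 desert regions and group 3 at 212, and their peaks averaged 61.5% and 65.3% GC and were 97.2% and 99.1% soft-masked. The window of group 2 lies 292 kb from *Gm37746* and 246 kb from *Gm37365*, and that of group 3 lies 348 kb from *Gm25248* and 337 kb from *Gm33340*. Both had a peak in all 4 libraries. Group 2 made up 7.09%, 15.2%, 9.45% and 4.13% of desert peaks in the 4 libraries. The window of group 8 repeats a short unit rich in CTCTCTGCGC, and its group was at 95 regions. None of the repeat families is named here, since the reference marks repeats by lower case without a name.

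Copies of these elements carried peaks both inside and outside deserts. The 31 bases of group 2 had 534 copies in deserts, of which 30.1%, 39.5%, 27.2% and 61.6% lay inside a peak. The 2969 copies within 100 kb of a gene gave 34.8%, 40.7%, 29.8% and 63.5%, and the 1388 copies inside genes gave 35.1%, 41.9%, 30.6% and 68.4%. For group 3 the 466 desert copies gave 27.7%, 26.0%, 18.2% and 72.5%, the 2976 copies within 100 kb of a gene 29.1%, 33.1%, 17.9% and 71.4%, and the 1665 copies inside genes 28.9%, 30.4%, 18.9% and 71.5%. The widest gap between deserts and another place in group 3 was in old WT Cre rep 2. In group 2 the desert share was the lowest of the 3 places in each library, although by little. Group 8 had the opposite order, with 29.5%, 18.9%, 13.7% and 47.4% of 95 desert copies in a peak, above 25%, 13.7%, 7.33% and 35.3% of the 300 copies inside genes. The 692 copies within 100 kb of a gene lay between, at 28.5%, 17.1%, 9.39% and 36.1%, close to deserts in old WT Cre. Group 5, with 226 desert copies, had 10.6%, 8.85%, 7.96% and 26.1% in a peak, against 12.9%, 5.78%, 5.33% and 18.4% of the 675 copies inside genes and 11.9%, 7.20%, 7.26% and 20.6% of the 1764 within 100 kb of a gene, so deserts were highest in 3 libraries. Each 31-base sequence was chosen because it recurred at desert summits of these same libraries, which favours its desert copies. An order with deserts highest is therefore a description and is not read as a result.

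Other abundant elements were mostly without peaks. Of 675 desert copies of the 31 bases of group 4, 6.81%, 2.67%, 0.444% and 6.52% lay inside a peak, and of 2897 desert copies of those of group 6, 0.725%, 0.138%, 0.414% and 1.69%. Peaks of group 6 averaged 48.8% GC and those of group 4 50.2%, below those of groups 2 and 3. Reads from identical copies can align to several places, and whether such reads were kept in these libraries is not stated in the sources used here. The part of this in the occupancy was not tested.

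**Figure D1:**
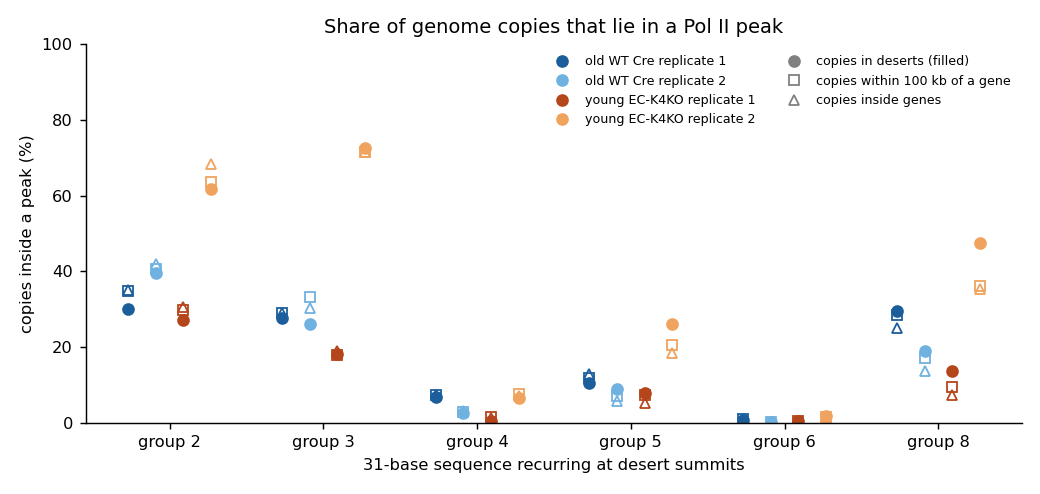
Share of the copies of 6 recurring 31-base sequences (horizontal axis) that lie inside a Pol II peak (vertical axis, percent), by library (colour) and by place of the copy (filled circles in deserts, open squares within 100 kb of a gene, open triangles inside genes). Groups 2 and 3 reach 61.6% and 72.5% of desert copies in young EC-K4KO rep 2, whereas group 6 stays at 1.69% or below.

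Desert peaks were fewer than the share of the genome that deserts take up. For old WT Cre, desert peaks were 3.14% (rep 1, 95% exact binomial interval 3.02 to 3.27) and 3.31% (rep 2, 3.14 to 3.50) of the peaks on chromosomes 1 to 19. For young EC-K4KO they were 4.72% (rep 1, 4.50 to 4.95) and 3.44% (rep 2, 3.36 to 3.51). The intervals cover counting error only. Uniform placement on sequenced bases would give 6.08% in each, so the observed shares were 0.517, 0.546, 0.777 and 0.565 of it. All 4 libraries lay below uniform placement, and young EC-K4KO rep 1 lay nearest to it.

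The comparison changed sides when GC content was matched. When each peak was placed on a base of the same GC content, in bins of 5 percentage points of a 200 bp window, the share to be found in deserts fell to 2.79%, 2.64%, 2.66% and 2.94%. The observed shares were 1.12, 1.25, 1.77 and 1.17 times these values, so that all 4 libraries were above this comparison. The comparison at equal GC was chosen after the uniform one had been seen.

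The desert share averaged 3.23% ± 0.123 (SD, n = 2) for old WT Cre, and young EC-K4KO averaged 4.08% ± 0.907 (SD, n = 2), a difference of −0.850 percentage points. The 2-sided exact permutation test over the 4 libraries gave p = 0.333, the smallest that 2 libraries against 2 allow (p = 0.50 after adjustment over 6 measures). The difference was −0.208 without young EC-K4KO rep 1 and −1.49 without young EC-K4KO rep 2, so it rested largely on young EC-K4KO rep 1. With −log10 q of at least 5 it was −0.302, and with lists of equal length −0.616 (exact permutation p = 1.00 for both), since young EC-K4KO rep 2 then fell below both old WT Cre libraries, to 3.10% and 3.20%.

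In ranges of distance from genes, density was lower in each range beyond 100 kb than in each nearer one, in all 4 libraries. Inside gene bodies there were 36.8, 18.8, 14.3 and 108 peaks per Mb in the 4 libraries, between 50 and 100 kb from a gene 20.6, 10.5, 12.8 and 63.7, and between 100 and 200 kb 16.7, 8.80, 11.3 and 54.6. In young EC-K4KO rep 1 density first rose, to 16 peaks per Mb between 1 and 25 kb. Between 200 and 300 kb the values were 17.4, 9.51, 11.5 and 51.3, above those between 100 and 200 kb in 3 libraries. Beyond 300 kb, over 10.9 Mb, they were 14.5, 7.07, 10 and 46.4, the lowest of each library. In 3 libraries the density beyond 300 kb was 0.438 to 0.491 of the mean over chromosomes 1 to 19, and in young EC-K4KO rep 1 it was 0.690. Just inside the limit of the rule, between 100 and 110 kb from a gene, 375, 228, 248 and 1225 peaks lay on 20.6 Mb. Just outside it, between 90 and 100 kb, 461, 247, 304 and 1458 peaks lay on 24.8 Mb. The densities were 18.2, 11.1, 12.1 and 59.6 per Mb inside and 18.6, 9.97, 12.3 and 58.9 outside, lower inside in 2 libraries and higher in 2.

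**Figure D2:**
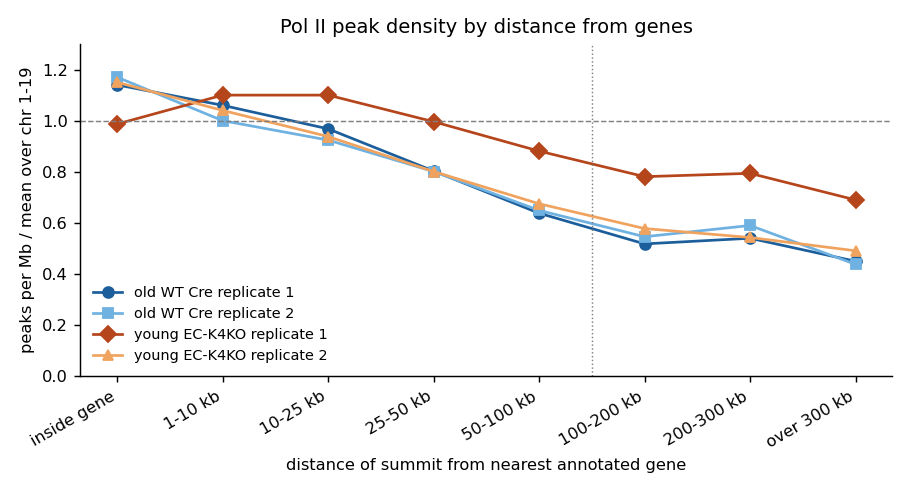
Peak density by distance of the summit from the nearest annotated gene (horizontal axis, from inside a gene to over 300 kb), as a ratio to the mean density of the library over chromosomes 1 to 19 (vertical axis), with a line per library. The dotted line is the 100 kb limit, and beyond it 3 libraries sit between 0.438 and 0.590 and young EC-K4KO rep 1 between 0.690 and 0.794.

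Desert peaks were spread widely. They fell in 734, 582, 639 and 974 of the 1128 deserts, 395 deserts (35%) had a peak in each of the 4 libraries, and 109 (9.66%) had none in any. By chromosome the density ranged from 13.6 to 21.4 per Mb in old WT Cre rep 1, lowest on chromosome 12 and highest on chromosome 18. The nearest annotated gene was a pseudogene for 40.2%, 40.6%, 40.2% and 39.0% of desert peaks, against 41.9% of desert positions at large, and a protein-coding gene for 15.3%, 14.5%, 16.6% and 15.7%, against 13.4%.

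Desert peaks lay on bases far richer in GC than the deserts around them. Their mean GC content was 53.5%, 55.3%, 54.8% and 51.4%, with desert DNA at 38.3%. The groups averaged 54.4% ± 1.29 (SD, n = 2) and 53.1% ± 2.37 (SD, n = 2), which the 2-sided exact permutation test did not separate (p = 0.667), and the difference of 1.31 percentage points was −0.366 without young EC-K4KO rep 2. Against peaks inside genes of the same library, desert peaks were lower in GC in 4 of 4 libraries, by differences from −3.28 to −0.343 percentage points. The exact sign-flip test over 4 libraries gave p = 0.125, the smallest it allows, and 0.286 after adjustment over 16 comparisons. Against peaks within 100 kb of a gene there was no such order, with 2 of 4 libraries higher and differences from −1.69 to 0.0343 percentage points (exact sign-flip p = 0.50, adjusted p = 0.533).

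Soft-masked bases made up 69.3%, 78.2%, 63.4% and 52.2% of desert peaks. These are means over peaks, and 31.3%, 44.3%, 32.1% and 20.8% of desert peaks were masked over their whole length. Desert DNA had 40.6%, and desert windows of the same GC content as the summits had 57.8%, 62.3%, 58.5% and 53.7%. Against these GC-matched values the libraries split: both old WT Cre libraries and young EC-K4KO rep 1 lay above, and young EC-K4KO rep 2 lay slightly below.

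Within a library, masking rose from gene to desert. Desert peaks exceeded peaks within 100 kb of a gene by 16.2 percentage points ± 2.74 (SD, n = 4) and peaks inside genes by 36.3 ± 6.35 (SD, n = 4), in 4 of 4 libraries each (exact sign-flip p = 0.125, adjusted p = 0.286). The share of summits whose 31 bases had a further copy in the genome behaved likewise, at 55.1%, 67.5%, 44.3% and 33.0% in desert peaks. It was 12.5 percentage points ± 5.52 (SD, n = 4) above peaks within 100 kb of a gene and 27.5 ± 9.37 (SD, n = 4) above peaks inside genes, again in 4 of 4 libraries with the same p-values. Deserts themselves hold more masked bases than the chromosomes at large, and its part in this order was not tested.

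The groups differed in masking by more than their spread, although no p below 0.333 could be reached. Old WT Cre averaged 73.8% ± 6.29 (SD, n = 2) and young EC-K4KO 57.8% ± 7.90 (SD, n = 2), and the lowest old WT Cre library (69.3%) lay above the highest young EC-K4KO library (63.4%). The difference of 16 percentage points (exact permutation p = 0.333, adjusted p = 0.50) was 10.4 without young EC-K4KO rep 2 and 21.6 without young EC-K4KO rep 1. The group order was not particular to deserts, since peaks within 100 kb of a gene were 51.4%, 59.2%, 50.1% and 37.6% masked and peaks inside genes 33.0%, 33.1%, 30.1% and 21.8%. The same group order was seen in fragment length, which the peak caller gave as 174, 162, 160 and 151 bp, and the part of fragment length in the result was not tested.

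**Figure D3:**
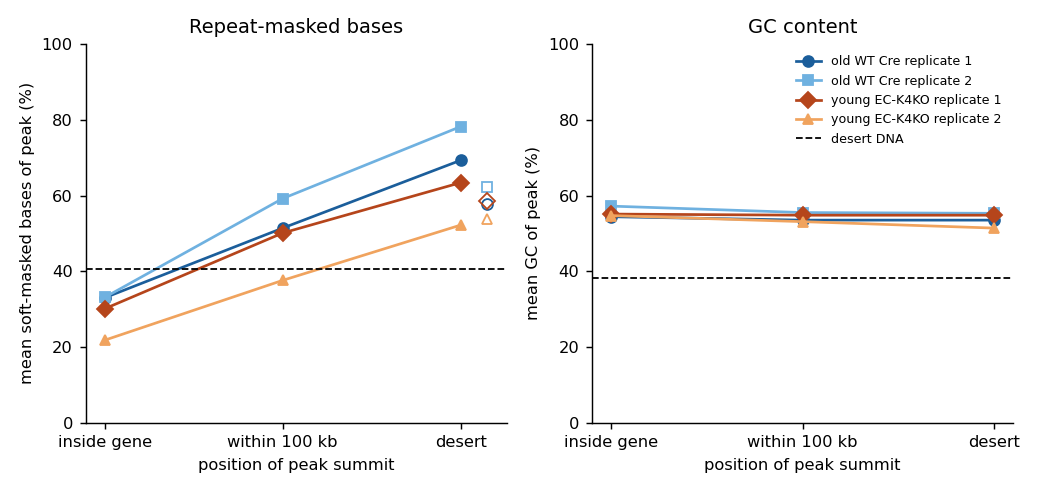
Mean soft-masked bases (left) and mean GC content (right) of peaks inside genes, within 100 kb of a gene and in deserts (horizontal axis), in percent (vertical axes), with a line per library and the value of desert DNA dashed. Open symbols at the right of the left panel give desert windows matched on GC. Masking rises from left to right in each library, reaching 52.2% to 78.2% in deserts, whereas GC stays between 51.4% and 57.2%.

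CA repeats set the groups apart most clearly. A 200 bp summit window was counted when it held CACACACA on either strand. For old WT Cre it did in 423 of 2426 (17.4%) and 238 of 1281 (18.6%) desert peaks. For young EC-K4KO it did in 64 of 1640 (3.90%) and 310 of 7768 (3.99%). Of all 200 bp desert tiles 4.95% held it, so both old WT Cre libraries were over 3 times that share and both young EC-K4KO libraries slightly below it. Of desert tiles with the GC content of the summits 3.53%, 3.03%, 3.45% and 4.02% held it, and against these the ratios were 4.95 and 6.14 for old WT Cre and 1.13 and 0.992 for young EC-K4KO. The means were 18% ± 0.808 (SD, n = 2) and 3.95% ± 0.0624 (SD, n = 2), with no overlap and exact permutation p = 0.333, the smallest possible. This measure was tested after its values had been seen.

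The CA repeat was not a property of deserts. It was found at 16.8%, 18.7%, 4.53% and 5.0% of peaks within 100 kb of a gene and at 14.9%, 15.2%, 5.19% and 5.09% of peaks inside genes, the same division of the libraries in each place. In lists of equal length the difference in deserts was 17.5 percentage points. Desert peaks with a CA repeat in old WT Cre rep 1 had a median pileup of 24 against 20 without, and 23.2% of them overlapped a peak of old WT Cre rep 2, against 16.4%. A peak of any other library was overlapped less often, by 29.8% of those with a CA repeat against 41.4% of those without. In old WT Cre rep 2 the order was the same, with 42.4% against 31.2% for its replicate and 49.6% against 62.3% for any library. The young EC-K4KO libraries did not show it, with 29.7% against 30% and 4.84% against 6.29% for the replicate and 40.6% against 38.3% and 17.1% against 15.7% for any library. The runs of the CA repeat counted as group 1 above made up 10.2%, 10.8%, 0.976% and 1.34% of desert peaks.

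**Figure D4:**
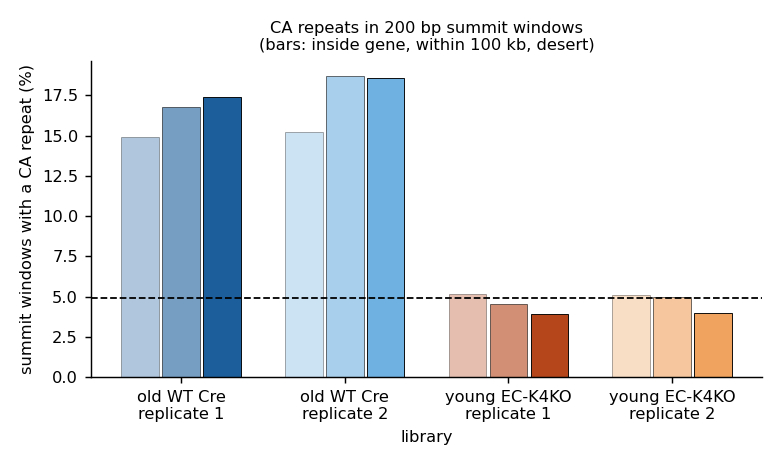
Share of 200 bp summit windows with a CA repeat (vertical axis, percent) in each library (horizontal axis), with 3 bars per library for peaks inside genes, within 100 kb of a gene and in deserts, from pale to full colour. The dashed line is the 4.95% of all desert tiles, and the old WT Cre bars stand at 14.9% to 18.7% against 3.90% to 5.19% in young EC-K4KO.

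Other short sequences were searched in the same windows on both strands, 13 in all, with desert tiles of the same GC content beside them. The cyclic AMP response element TGACGTCA, the site of CREB and ATF factors, was at 0.701%, 1.01%, 1.16% and 0.566% of desert summits against 0.261%, 0.202%, 0.292% and 0.232% of matched tiles, so it was above in each library. Of the 93 desert peaks with it, 83 belonged to group 5 of the recurring sequences, a group of 147 regions. One such region, between *Gm38269* and *Gm29514* on chromosome 1, is shown because it carries the element and had a peak in all 4 libraries. The capitals mark the response element.
Region 5 (chr1:146121018-146121167, plus strand): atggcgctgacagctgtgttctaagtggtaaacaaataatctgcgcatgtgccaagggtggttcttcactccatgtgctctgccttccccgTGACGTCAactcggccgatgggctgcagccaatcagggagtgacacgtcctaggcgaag

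TATAAAAG, a form of the TATA box, was at 1.85%, 1.72%, 1.95% and 0.875% of desert summits against 0.706%, 0.617%, 0.701% and 0.832% of matched tiles. It was above them in 3 libraries and close to them in young EC-K4KO rep 2. Of the 167 peaks with it, 5 were in any of the 8 recurring groups. The CACCC box bound by KLF factors, searched as CCACACCC, was at 2.72%, 1.87%, 2.68% and 2.16% against 2.13%, 2.08%, 2.25% and 1.90%, with ratios of 0.901 to 1.28 and no group order. The GATA letters AGATAAG (ratios 0.417 to 0.884) and the AP-1 letters TGANTCA (0.597 to 0.946) were below matched tiles in each library. The GC box GGGGCGGG (0.264 to 0.734) and the SOX letters AACAATGG (0.350 to 0.912) were below them in each library too, although the lowest ratios, in old WT Cre rep 2, rest on 3 and 4 windows. The ETS letters CCGGAAGT were at 4, 0, 2 and 13 desert summits (ratios 0 to 1.19), the NRF1 letters GCGCATGCG at 4, 4, 1 and 7 (1.57 to 7.07) and the CTCF core AGGGGGCGC at 1, 0, 1 and 1 (0 to 0.675), and no direction is read from these counts. GAGAGAGA was above matched tiles in old WT Cre (ratios 1.40 and 1.43) and below in young EC-K4KO (0.673 and 0.685), and AAAAAAAA had ratios of 0.718 to 1.31. A match of letters is a description and not a site of binding.

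Desert peaks were close to other peaks in width. Their median width was 229, 213, 195 and 181 bp, and the difference from peaks within 100 kb of a gene ranged from −2 to 9 bp. Width averaged 221 bp ± 11.3 (SD, n = 2) for old WT Cre against 188 bp ± 9.90 (SD, n = 2), 33 bp apart without overlap (exact permutation p = 0.333, adjusted p = 0.50). Without young EC-K4KO rep 2 the difference was 26 bp. With lists of equal length it became 4 bp (exact permutation p = 1.00). Widths followed the order of the fragment lengths given above, whose part in them was not tested.

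The median pileup was 21, 13, 13 and 11 fragments, or 0.319, 0.473, 0.369 and 0.484 per 1000000 fragments of the library (FPM). Peaks within 100 kb of a gene had 21, 13, 14 and 13 fragments and peaks inside genes 21, 13, 14 and 14, so desert peaks were level with both in old WT Cre and lower in young EC-K4KO (exact sign-flip p = 0.50 and adjusted p = 0.533 for each place). The groups overlapped, at 0.396 ± 0.109 (SD, n = 2) and 0.427 ± 0.0816 (SD, n = 2) FPM (exact permutation p = 0.667). Median fold enrichment over local background was 0.0620 to 0.373 higher in desert peaks than in peaks inside genes, in 4 of 4 libraries (exact sign-flip p = 0.125, adjusted p = 0.286). Against peaks within 100 kb of a gene it was higher in 3 of 4, by −0.0142 to 0.298 (exact sign-flip p = 0.25, adjusted p = 0.50). Among peaks on chromosomes 1 to 19 the tallest were not in deserts: the highest desert pileup was 831, 408, 141 and 172, against 9576110, 4201070, 1183310 and 393164 inside genes. The latter were 1 place on chromosome 2 and amounted to 14.6%, 15.3%, 3.36% and 1.73% of the fragments. An interval of that peak's width holds 304590 to 307720 different pairs of fragment ends, fewer than its pileup in each library. If they all lay inside the interval, fragments with the same pair of ends were counted more than once there in each library. The study's methods state that duplicates were removed, and whether any remained elsewhere was not tested.

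The fragments at such peaks enter the division that gives FPM. Peaks above 1000 fragments, none of them in deserts, added up to 24.7%, 26.9%, 6.27% and 3.32% of fragments. With these left out of the division, a choice made after seeing the data, the median desert pileup was 0.424, 0.648, 0.394 and 0.501 FPM. The difference between the groups turned from −0.0303 to 0.0886 FPM (exact permutation p = 0.667), so no direction is read from it.

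Desert peaks recurred between libraries far above uniform placement. Of old WT Cre rep 1 desert peaks 17.6% overlapped a peak of old WT Cre rep 2 by at least 1 bp, 11.3% one of young EC-K4KO rep 1 and 28.2% one of young EC-K4KO rep 2. Desert peaks of the same widths placed uniformly in deserts would give 0.483%, 0.582% and 2.69%. Of all its peaks on chromosomes 1 to 19, 12.9%, 7.42% and 25.4% did, so such recurrence was not particular to deserts. Over the 12 ordered pairs the observed share was 10.3 to 36.3 times the uniform one, highest between the 2 old WT Cre libraries, and 0.998 to 1.60 times that of all peaks, above it in 11 pairs. The largest single share was 42.2%, of old WT Cre rep 2 desert peaks in the long list of young EC-K4KO rep 2, against 36.4% of all peaks. Uniform placement ignores GC content and repeats, which desert peaks share, and their part in the recurrence was not tested.

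Sharing did not follow the groups library by library. Both old WT Cre libraries and young EC-K4KO rep 2 overlapped a library of the other group more often than their own replicate. Young EC-K4KO rep 2, for example, had 6.23% with its replicate against 8.69% and 6.85%. A share rises with the length of the list it is counted in, and the lists are of unequal length. The mean share was 21.8% within groups and 18% between them, a difference of 3.71 percentage points, the largest of the 3 ways to pair the 4 libraries (the other two gave −0.0620 and −3.65; 1-sided exact permutation p = 0.333, the smallest possible). Without old WT Cre rep 1 the difference was −1.79, and without young EC-K4KO rep 2 it was 10.8.

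Most desert peaks were seen once in 3 libraries, and 40% were in old WT Cre rep 2. A peak of at least 1 other library was overlapped by 39.4%, 60%, 38.4% and 15.7% of desert peaks, against 34.5%, 51.6%, 38.4% and 15.1% of all chromosome 1 to 19 peaks. A peak of every other library was overlapped by 101, 103, 101 and 105 desert peaks, which is 4.16%, 8.04%, 6.16% and 1.35%, against 2.35%, 4.78%, 5.10% and 0.854% of all. For overlap with at least 1 other library the desert share was above that of all peaks in 3 libraries and level with it in young EC-K4KO rep 1. For overlap with every other library it was above in each of the 4. It exceeded peaks inside genes by 4.42 percentage points ± 4.46 (SD, n = 4) for overlap with at least 1 other library, in 4 of 4 libraries (exact sign-flip p = 0.125, adjusted p = 0.286), and peaks within 100 kb of a gene in 3 of 4.

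Masking and GC went up with the number of libraries. In old WT Cre rep 1, desert peaks seen there alone were 63.4% masked with 51.4% GC and 47.2% had copied summit bases, and those seen in all 4 libraries were 89.8% masked with 61.1% GC and 91.1% had copied summit bases. Their median width rose from 210.0 to 425 bp. In young EC-K4KO rep 2 masking rose from 47.9% to 92.1% and GC from 50.2% to 60.9%. Of the 11044 merged regions, 9543 (86.4%) came from 1 library and 107 had a desert peak in all 4. Of the former, 6547 were of young EC-K4KO rep 2, and without that library 3824 of 4497 regions (85%) came from 1 library and 126 from all 3. Of these 107, 72 (67.3%) carried one of the 6 recurring groups that are not simple repeats, against 12.5% of all regions, and group 2 alone made up 42 and group 3 made up 27. Without young EC-K4KO rep 2, 75 of the 126 (59.5%) carried one, against 19.4% of regions. The groups were built from these same summit windows, and a region with peaks in more libraries brings more windows that can match. The part of this in the excess was not tested.

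The 8 regions with the largest smallest −log10 q over the 4 libraries are named by the genes beside them, and pileups are given in FPM. The second and the fourth lie on chromosome 8 between the pseudogenes *Gm8734* and *Gm20586*, with *Gpm6a*, a neuronal membrane glycoprotein gene, as the nearest coding gene on one side. They start 9618 bp apart, and 91.8% of the 31-base sequences of the shorter one were found in the other. Each was little masked (12.2% and 15.5%) and rich in GC (58.7% and 59.0%). Their windows are printed because they show a repeated unit that soft-masking does not mark, and so a limit of the masked share as a measure of repeats.
Region 2 (chr8:55373717-55373866, plus strand): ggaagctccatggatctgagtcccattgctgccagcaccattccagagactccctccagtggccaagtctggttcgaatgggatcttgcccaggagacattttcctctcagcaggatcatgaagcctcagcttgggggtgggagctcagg
Region 4 (chr8:55363825-55363974, plus strand): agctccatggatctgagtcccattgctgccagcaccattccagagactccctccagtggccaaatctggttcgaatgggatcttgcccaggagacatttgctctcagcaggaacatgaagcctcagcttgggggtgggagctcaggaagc

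The pileup of the second region was 3.32, 4.33, 3.21 and 7.13 FPM, and that of the fourth 2.78, 4.63, 2.81 and 7.58. Young EC-K4KO rep 2 was highest at both. Their desert held 15, 12, 15 and 22 peaks on 86.6 kb of sequenced bases. It held 5 of the 107 regions seen in all 4 libraries, the most in 1 desert, although longer deserts held more peaks. An assembly gap takes up part of it.

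The third region, between *Gm25727* and *Gm2622* on chromosome 3, held the tallest desert peak of 3 libraries. Its pileup was 831, 408, 141 and 46 fragments, or 12.6, 14.9, 4.0 and 2.03 FPM, so both old WT Cre libraries were above both young EC-K4KO libraries, by more than 3 times. Fold enrichment over local background kept this order with a smaller gap, at 29.4, 30.8, 22 and 17.4. The region was chosen for its height, so this is a description without a test. It was poor in GC (35.8%), fully masked, and matched itself at 87.4% of bases when shifted by 117 bp. The window is shown because it carries this tandem unit.
Region 3 (chr3:56575588-56575737, plus strand): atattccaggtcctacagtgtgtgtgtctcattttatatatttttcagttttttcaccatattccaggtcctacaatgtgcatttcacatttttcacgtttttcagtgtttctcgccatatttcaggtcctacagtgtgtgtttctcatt

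The first of the 8 lies between *Zfp521*, a zinc finger gene 131 kb away, and *AC165409.1* on chromosome 18, and its pileup was 305, 185, 123 and 121 fragments, or 4.64, 6.74, 3.49 and 5.33 FPM. It was 182 bp long, wholly masked, and its fold enrichment was 30.3, 36.0, 29.8 and 31.8, so the groups overlapped in both measures. With the fragments at peaks above 1000 left out of the division, the pileup was 6.16, 9.22, 3.72 and 5.51 FPM, without overlap.

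The region of the response element on chromosome 1 had a pileup of 1.80, 1.60, 1.65 and 3.04 FPM. A region on chromosome 16, 249 kb from *Gm27784* and 343 kb from *Epha6*, which encodes an ephrin receptor, had 1.32, 1.97, 1.19 and 2.64. One on chromosome 4, 275 kb from the growth factor gene *Gdf6*, had 1.45, 1.49, 1.93 and 1.98 and was 2.70% masked, with both young EC-K4KO libraries above both old WT Cre libraries. The last, on chromosome 1 and 424 kb from the potassium channel gene *Kcnt2*, had 0.882, 1.49, 1.19 and 1.89. In the other 3 of these 4 lower-ranked regions the groups overlapped, and young EC-K4KO rep 2 was highest in all 4. With the fragments at peaks above 1000 left out, the *Gdf6* region had 1.92, 2.04, 2.06 and 2.05 FPM, nearly level, and the *Kcnt2* region 1.17, 2.04, 1.27 and 1.96, with old WT Cre rep 2 highest.

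Regions with a desert peak in both libraries of a group and no peak in the other group numbered 169 for old WT Cre, which is 1.53% of the 11044 regions, against 1.39% of the regions merged from all chromosome 1 to 19 peaks. There were 242 for young EC-K4KO, 2.19% against 1.64%. These counts also depend on the unequal lengths of the lists, and without young EC-K4KO rep 2 its group has 1 library and gives no such count. The former were 87.5% masked with 51.1% GC, and the latter 65.9% masked with 56.3% GC. The 3 leading old WT Cre regions had pileups of 58 and 31 fragments (chromosome 13, 197 kb from *5033403F01Rik*), 51 and 30 (chromosome 16, 102 kb from *Grin2a*, a glutamate receptor subunit gene) and 42 and 32 (chromosome 1, between *Eya1* and *Msc*, both transcription regulator genes). All 3 were at least 91.8% masked.

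The leading young EC-K4KO region lay in the same chromosome 8 desert as the paired regions above, with 91 and 100 fragments but a fold enrichment of 3.61 and 3.49. The next lay on chromosome 6, 101 kb from *Mir148a*, a microRNA gene, with 28 fragments in each library and a fold enrichment of 6.72 and 8.90. It was free of masked bases, 67.1% GC, and its summits had a single copy in the genome. It is printed because it is the one of these regions that is neither masked nor copied, and was chosen after its values were seen.
Mir148a region (chr6:51168882-51169031, plus strand): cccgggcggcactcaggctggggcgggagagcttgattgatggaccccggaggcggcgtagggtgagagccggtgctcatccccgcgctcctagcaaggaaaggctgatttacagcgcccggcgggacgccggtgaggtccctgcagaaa

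The third young EC-K4KO region lay on chromosome 11, 142 kb from *Gm12297*, with 21 and 28 fragments. The lists give called peaks alone, so a region called in one group only is not shown to be without Pol II in the other.

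**Figure D5:**
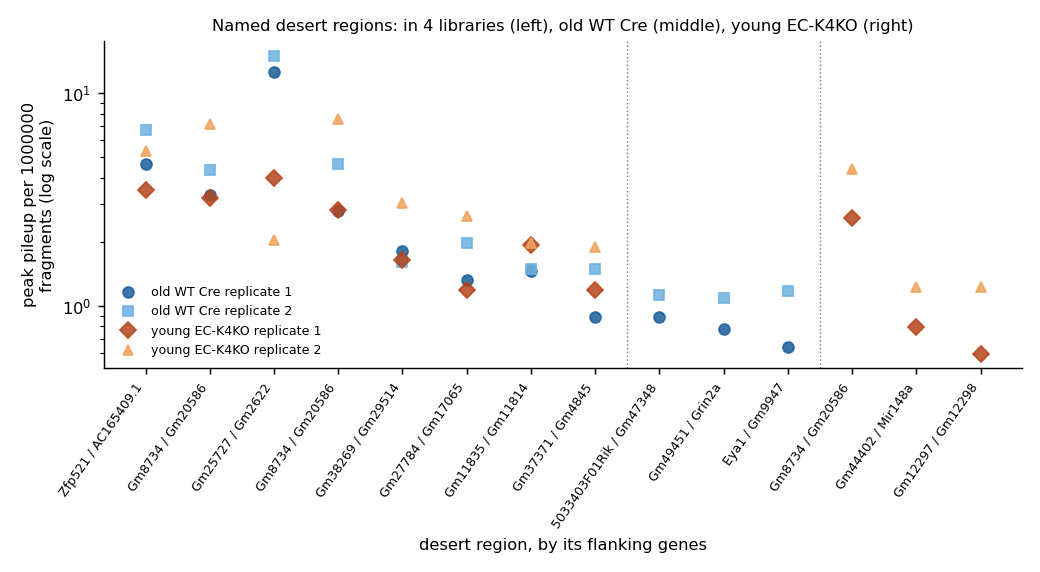
Peak pileup per 1000000 fragments (FPM, vertical axis, log scale) at the 8 desert regions leading among those in all 4 libraries and the 3 leading regions of each group, named by the nearest annotated genes (horizontal axis), with a symbol per library. Old WT Cre lies at 12.6 and 14.9 and young EC-K4KO at 4.0 and 2.03 between *Gm25727* and *Gm2622*, and between *Gm11835* and *Gm11814* young EC-K4KO lies above old WT Cre. At the other 6 shared regions the groups overlap on this scale.

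Deserts beside endothelial genes were looked at from a list of 53 regulators and markers, of which 52 were in the annotation and 11 were the nearest protein-coding gene on a side of a desert. Annotated genes of other types lay between them and these deserts. The 25 deserts made up 1.71% of desert bases and held 1.40%, 1.48%, 2.13% and 1.61% of desert peaks, so they were close to their share of bases. None of the 107 regions in all 4 libraries lay there, which at 1.71% of desert bases is no clear absence. The 2 deserts with *Klf4* and *Actl7b* as their nearest coding genes, on chromosome 4, held 1, 2, 2 and 7 peaks over 132 kb and 3, 0, 3 and 3 over 90.3 kb. The 2 with *Cdh11* and *Cdh5*, on chromosome 8, the second gene being the source of the Cre promoter, held 0, 1, 1 and 1 over 64.4 kb and 4, 1, 4 and 20 over 191 kb. The desert before *Nrp1*, which encodes a coreceptor for vascular endothelial growth factor, held 4, 5, 6 and 28 over 466 kb. The 2 beyond *Jag1*, a Notch ligand gene, held 1, 0, 0 and 5 over 134 kb and 3, 0, 1 and 4 over 179.7 kb. Counts this small in the 3 shorter lists do not separate the groups.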

How the data were processed

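Pol II ChIP-seq was deposited for 4 libraries of brain ECs. According to the study's methods the authors aligned trimmed reads to mm10 by Bowtie2, with duplicates removed. Per the file headers the authors called peaks with MACS 2.2.7.1 on paired fragments, at a q-value of at most 0.01, keeping all fragments given to it and using no control library. The deposited tables give the pileup signal at the summit, the fold enrichment (a ratio over local background) and −log10 of the p-value and q-value, none normalized between libraries. Deposited narrow peak and summit lists hold the same peaks and were not used.

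Distances to genes, soft-masking, GC content and overlaps of at least 1 bp were computed in Python 3.11.15 (SciPy 1.17.1, pandas 2.3.3, NumPy 2.4.6) against GRCm38. Pileups were divided by the fragments of their library. Expected values for uniform placement were calculated exactly from base counts and not drawn. Groups were compared by exact permutation over libraries, and p-values were adjusted by Benjamini-Hochberg. Regions were named by rank of their smallest −log10 q, by pileup or by their flanking genes, plus the region near *Mir148a*. The members, lists and tests were chosen with earlier results of these data known. Region counts without young EC-K4KO replicate 2, group patterns over all peaks and densities beside the distance limit were added after seeing the data. The steps were tested on simulated data. Peaks on other chromosomes (1581, 1022, 876 and 9467) were left out.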

Additional observations from a re-analysis of the deposited data

How the results depend on the processing

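No source used here says that replicate numbers pair libraries across the groups. A replicate block pairing them by number left the differences at −0.850 for the share, 33 bp, −0.0303 FPM, 16 for the masked share, 1.31 for GC and 14.1 for CA repeats, with an exact sign-flip p of 1.00 for GC and otherwise 0.50, the smallest that 2 pairs allow. Of 80 other alternatives, which changed the distance, the gene set, the peak filters or the measure, 77 kept the direction, and no p could pass 0.05 in any. Placement matched on GC, added after the data were seen, turned the desert share against uniform placement from −2.42 to 0.891 percentage points. Lists of equal length (34762 peaks) turned the difference in GC between the groups from 1.31 to −0.953 percentage points and took the difference in width to 4 bp. The same lists took the difference in pileup from −0.0303 to −0.176 FPM. With −log10 q of at least 5 the difference in pileup was −0.0797 FPM and that in GC 0.160 percentage points. Leaving the fragments at peaks above 1000 out of the division turned the difference in pileup from −0.0303 to 0.0886 FPM. Leaving out each replicate gave −1.49 to −0.208 for the share, 25 to 41 bp for the width, −0.107 to 0.0467 FPM for the pileup, 10.4 to 21.6 for the masked share, −0.366 to 2.98 for GC, −1.79 to 10.8 for sharing within against between groups, 13.5 to 14.6 for CA repeats, 15.3 to 17.2 for masking against peaks within 100 kb of a gene, and −2.78 to −2.25 for the share against uniform placement. Pileup turned without old WT Cre replicate 1 (0.0467) or young EC-K4KO replicate 2 (0.0275), GC without young EC-K4KO replicate 2 (−0.366), and sharing without old WT Cre replicate 1 (−1.79). The cause of these turns was not tested. Peaks at 7 to 13 fragments set the lower limit of what the lists can show.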
